A study of Mus musculus with 4 samples.

Results

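The Slc25 family comprises the carrier proteins that move metabolites, nucleotides and cofactors across the inner membrane of mitochondria. Its members were taken as every gene of the deposited count tables whose symbol is Slc25a followed by digits alone, which gave 47 symbols, and 45 of these had at least 20 unique molecular identifiers (UMIs, 1 per captured RNA molecule) over the 4 libraries. The whole tables held 25906 genes, of which 18620 passed the same minimum. The 45 members had between 40 (Slc25a2) and 45423 UMIs (Slc25a4). The members just inside the minimum were Slc25a2 with 40 UMIs and Slc25a54 with 88, and the symbols just outside it were Slc25a48 with 15 UMIs and Slc25a41 with 7.

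The libraries were made from sorted nuclei of the heart ventricles of wild-type C57BL/6J mice of both sexes. All animals entered at 8 weeks of age, and those with access to a wheel ran voluntarily for 16 weeks while the others stayed sedentary. The running infarct library pooled 4 hearts of runners and the sedentary infarct library 4 hearts of sedentary mice, both taken 2 weeks after surgery that induced a myocardial infarction; the running and the sedentary library each pooled 2 hearts of mice that had no infarct. Each group was thus 1 library from a pool of hearts, so no test between groups was possible, and the labels give neither a sham operation nor the number of male and female hearts in a pool.

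Most members of the family share a common fold built from repeated modules and exchange a substrate of the matrix against one of the space between the membranes. In heart muscle the ADP/ATP carriers and the phosphate carrier supply oxidative phosphorylation with its substrates and export the ATP made. The aspartate/glutamate carriers and the oxoglutarate carrier form the membrane steps of the malate-aspartate shuttle, which passes reducing equivalents from the cytosol to the respiratory chain, and the carnitine/acylcarnitine carrier brings fatty acids in for oxidation. Other members carry coenzyme A, NAD, S-adenosylmethionine, nucleotides, glutathione or iron.

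The running infarct, sedentary infarct, running and sedentary libraries held 4922, 3243, 6253 and 5388 barcodes with 29916572, 26170995, 37533722 and 32899707 UMIs, and 4711, 3124, 5832 and 5114 nuclei were kept. Any pair of libraries shared 2 to 12 barcodes, where 2.35 to 4.96 were expected by chance. The running and the sedentary infarct library shared 11 against 2.98 expected. Only the sedentary infarct and the running infarct library shared fewer than expected (2 against 2.35). Nuclei were clustered without the members and named from marker genes, and 7 classes had at least 100 nuclei in every library. These were cardiomyocyte-like (420, 374, 654 and 778 nuclei in that order of libraries), fibroblast-like, vascular endothelial-like, endocardial-like, macrophage-like and mesothelial-like nuclei and an unnamed cluster led by Myh11 and Rgs5, genes of smooth muscle and pericytes. Nuclei of smaller classes and of other unnamed clusters are not part of these 7 classes, and they held a large part of the UMIs. All kept nuclei had 27024868, 23816639, 30616164 and 28601881 UMIs without mitochondrially encoded genes. Of these, cardiomyocyte-like nuclei held 2070874, 3422163, 5318785 and 6447626, and fibroblast-like nuclei 3649142, 4471332, 5912579 and 5093126. Levels are UMIs summed over the nuclei of a class and library and scaled to a class total of 1000000 that leaves out the mitochondrially encoded genes (CPM). All intervals of levels and ratios are exact, at 95%, and cover counting error only, not the variation between mice. Levels of different members are not set against each other, since the assay does not correct for transcript length.

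Beside the infarct, 3 measured features of the pools also differed and are given with the results they touch. Nuclei with at least 2 UMIs of the Y-linked genes Ddx3y, Uty, Kdm5d and Eif2s3y, called Y-positive here, made up 12.6%, 22.5%, 47.4% and 38.0% of cardiomyocyte-like nuclei in the running infarct, sedentary infarct, running and sedentary library. A shallow nucleus of a male heart can lack such UMIs, so these shares depend on depth as well as on sex. A cardiomyocyte-like cluster of low depth, led by Nppa, Mb and Chchd10, held 51.9%, 20.6%, 15.1% and 11.4% of that class, with median depths of 1026.5, 1190, 1689 and 1736 UMIs against 8730, 10945, 9208 and 8864 in the other cluster of the class. A fibroblast-like cluster led by Col12a1 held 44.0% and 28.9% of the class in the running infarct and sedentary infarct library, against 0.0659% and 0% in the running and sedentary library.

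Of the 45 members, 4 were more than 2-fold higher in cardiomyocyte-like nuclei than in each of the other 6 classes in all 4 libraries: Slc25a12, Slc25a13, Slc25a34 and Slc25a42. Slc25a12 (aralar) and Slc25a13 (citrin) are the calcium-regulated aspartate/glutamate carriers, Slc25a42 imports coenzyme A, and the substrate of Slc25a34 is not settled. The sequences around their starts are shown because these members share their highest class. RefSeq (GRCm38.p6) gave 45 promoters for the 35 members that matched by symbol, each from 250 bases before to 50 after a start. All 4 genes lie on the minus strand, and each had 1 promoter in the table: Slc25a12 at chr2:71367706-71368005, Slc25a13 at chr6:6217124-6217423, Slc25a34 at chr4:141623785-141624084 and Slc25a42 at chr8:70212232-70212531. Capitals mark CCAAT boxes (CCAAT), half-sites of the estrogen-related receptors (ERR, AAGGTCA) and E-boxes (CACGTG), on either strand.
Slc25a12: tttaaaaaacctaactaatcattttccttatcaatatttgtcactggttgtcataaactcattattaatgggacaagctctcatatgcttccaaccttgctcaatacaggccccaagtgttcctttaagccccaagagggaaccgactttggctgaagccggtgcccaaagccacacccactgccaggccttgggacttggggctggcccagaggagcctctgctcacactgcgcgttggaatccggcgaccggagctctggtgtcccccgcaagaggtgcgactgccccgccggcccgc
Slc25a13: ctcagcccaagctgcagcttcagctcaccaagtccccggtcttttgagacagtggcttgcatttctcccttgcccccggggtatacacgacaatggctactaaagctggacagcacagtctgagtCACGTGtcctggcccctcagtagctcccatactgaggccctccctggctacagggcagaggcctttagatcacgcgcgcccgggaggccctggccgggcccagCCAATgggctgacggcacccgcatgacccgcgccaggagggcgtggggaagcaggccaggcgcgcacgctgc
Slc25a34: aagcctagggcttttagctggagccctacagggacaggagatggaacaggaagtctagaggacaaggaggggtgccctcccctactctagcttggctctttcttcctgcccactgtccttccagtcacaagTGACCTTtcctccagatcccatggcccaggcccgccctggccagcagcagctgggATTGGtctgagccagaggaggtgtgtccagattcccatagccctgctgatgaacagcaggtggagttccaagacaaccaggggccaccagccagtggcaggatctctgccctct
Slc25a42: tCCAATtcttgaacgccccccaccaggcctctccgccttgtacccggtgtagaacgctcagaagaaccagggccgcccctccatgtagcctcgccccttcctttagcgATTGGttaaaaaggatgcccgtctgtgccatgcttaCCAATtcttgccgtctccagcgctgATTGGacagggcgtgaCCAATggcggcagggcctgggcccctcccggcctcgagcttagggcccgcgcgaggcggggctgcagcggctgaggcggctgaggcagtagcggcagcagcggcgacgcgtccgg
The Slc25a12 window held none of these 3 motifs, Slc25a13 held 1 CCAAT box and 1 E-box, Slc25a34 held 1 ERR half-site and 1 CCAAT box, and Slc25a42 held 5 CCAAT boxes. The ERR half-site occurred in 4.72% of all 32851 promoters and in 1 of the 45 promoters of members, that of Slc25a34. CCAAT boxes occurred in 37.4% of all promoters and in 22 of the 45 (48.9%), and E-boxes in 7.15% of all and in 8 of the 45 (17.8%). GC boxes (GGGCGG, either strand) were found in 35.7% of all promoters and in 37 of the 45 (82.2%), among them those of Slc25a34 and Slc25a42. The median GC content was 59.7% over the members' promoters and 52.7% over all promoters. A match is only a match of letters, and the windows were not tested for binding.

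Cardiomyocyte-like nuclei carried the highest summed level of the family in every library. The 45 members together reached 3418, 3483, 3707 and 3661 CPM there in the running infarct, sedentary infarct, running and sedentary library. Most of the UMIs in each of these sums were those of Slc25a3, Slc25a4, Slc25a12 and Slc25a13, so the sums mainly follow these members. In the other 6 classes the sum lay between 1546 CPM, in endocardial-like nuclei of the running infarct library, and 1917 CPM, in the Myh11 and Rgs5 cluster of the sedentary library. The classes did not overlap: the lowest cardiomyocyte-like value was above the highest of any other class.

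By single members the pattern was mixed. Cardiomyocyte-like nuclei were the highest class by mean level for 19 of the 45 members and the lowest for 11. They were highest in all 4 libraries for 15 members, among them the ADP/ATP carriers Slc25a4 and Slc25a5, the phosphate carrier Slc25a3 and the carnitine/acylcarnitine carrier Slc25a20, and lowest in all 4 libraries for Slc25a14, Slc25a24, Slc25a30, Slc25a32 and Slc25a45. Macrophage-like nuclei were the highest class in all 4 libraries for Slc25a10, Slc25a28 and Slc25a45, fibroblast-like nuclei for Slc25a21 and Slc25a27, vascular endothelial-like nuclei for Slc25a32 and mesothelial-like nuclei for Slc25a14. The share of all genes highest or lowest in each class is not given, so these counts are not read as particular to the family. Among the 33 members with at least 100 UMIs in cardiomyocyte-like nuclei, the 4 that exceeded 2-fold over every other class in all 4 libraries were 12.1%, against 5.63% of all 10375 genes with that depth. The same rule named none of the 38 members deep enough in fibroblast-like, 26 in vascular endothelial-like, 22 in endocardial-like, 16 in macrophage-like, 8 in Myh11 and Rgs5 cluster and 10 in mesothelial-like nuclei. It named 1.09%, 1.52%, 0.557%, 7.34%, 2.56% and 4.19% of all genes in those classes, in the same order.

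**Figure D1:**
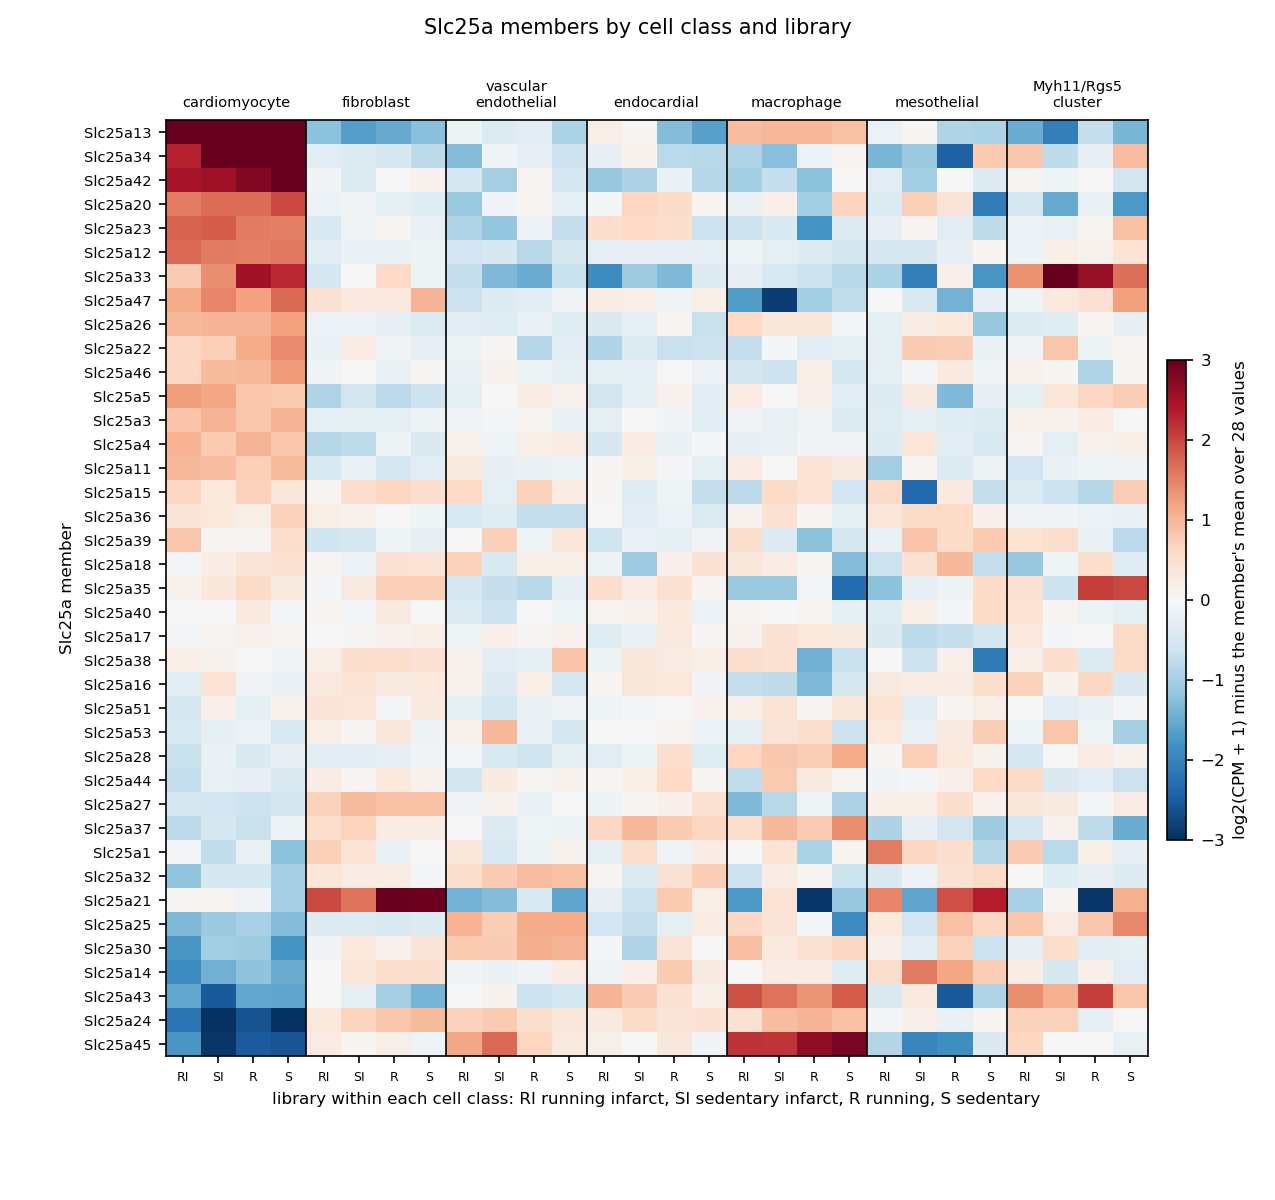
Levels of 39 members with at least 500 UMIs in the kept nuclei (rows) in 7 classes and 4 libraries (columns); colour gives log2(CPM + 1) minus the member's mean over the 28 values, limited to 3 either way. Slc25a42, Slc25a13, Slc25a34 and Slc25a12 stand out in all 4 cardiomyocyte-like columns, while Slc25a45, Slc25a24 and Slc25a14 are low there.

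The main ADP/ATP carriers and the phosphate carrier were highest in cardiomyocyte-like nuclei in all 4 libraries. Slc25a4 (ANT1), the ADP/ATP carrier of heart and skeletal muscle, had 776, 648, 770.1 and 659.8 CPM in cardiomyocyte-like nuclei of the running infarct, sedentary infarct, running and sedentary library. In the other classes it lay between 208 CPM, in fibroblast-like nuclei of the running infarct library, and 484 CPM, in mesothelial-like nuclei of the sedentary infarct library, so the groups of classes did not overlap. Slc25a3, which imports the phosphate used to make ATP, had 543, 608, 539 and 606 CPM in cardiomyocyte-like nuclei and between 226 and 354 CPM elsewhere. Slc25a5 (ANT2), an ADP/ATP carrier of many tissues, had 66.6, 62.5, 48.7 and 48.2 CPM in cardiomyocyte-like nuclei, and its next class, the Myh11 and Rgs5 cluster, reached 22.7, 35.5, 43.0 and 46.4 CPM. Slc25a31, an ADP/ATP carrier known from testis, had 4.35, 7.31, 14.1 and 10.1 CPM from 174 UMIs.

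The calcium-regulated ATP-Mg/phosphate carriers, which set the adenine nucleotide content of the matrix, divided between classes. Slc25a23 was highest in cardiomyocyte-like nuclei, at 101, 103, 87.0 and 84.5 CPM, against 20.6, 26.6, 30.3 and 24.7 CPM in fibroblast-like nuclei. Slc25a24 showed the opposite order, at 4.83, 2.34, 3.38 and 1.86 CPM in cardiomyocyte-like nuclei (48 UMIs) and 32.3, 42.0, 45.8 and 51.0 CPM in fibroblast-like nuclei. Slc25a25 had 62.1, 49.6, 64.9 and 64.9 CPM in vascular endothelial-like nuclei and 11.1, 13.1, 14.5 and 11.5 CPM in cardiomyocyte-like nuclei. Within this subfamily each of these pairs of values was separate in all 4 libraries.

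Slc25a13 differed widely between classes. Its level in cardiomyocyte-like nuclei was 493, 529, 709.7 and 546 CPM in the running infarct, sedentary infarct, running and sedentary library, 5.17 to 7.15 times that of the next class. Macrophage-like nuclei followed at 95.3, 99.6, 99.2 and 91.4 CPM, and fibroblast-like nuclei had 20.6, 15.0, 16.6 and 20.0 CPM. When each nucleus was thinned to 1000 UMIs, 32.6%, 33.7%, 41.9% and 38.8% of cardiomyocyte-like nuclei held a Slc25a13 UMI, with 101, 27, 19 and 21 shallower nuclei left out. The same share was 1.72%, 1.10%, 1.72% and 1.62% in fibroblast-like nuclei, and without thinning it was 50.5%, 76.2%, 84.9% and 86.6% of cardiomyocyte-like nuclei, at median depths of 2837.5, 9473, 8451 and 8413.5 UMIs. Fibroblast-like nuclei had median depths of 4383, 4441.5, 4045 and 3489 UMIs.

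Slc25a12 was spread more widely. It had 365, 333, 321 and 336 CPM in cardiomyocyte-like nuclei and 99.2, 127, 122 and 150.3 CPM in the Myh11 and Rgs5 cluster, the next class by mean level. Over its next class in each library it was 2.24 to 3.54 times higher.

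**Figure D2:**
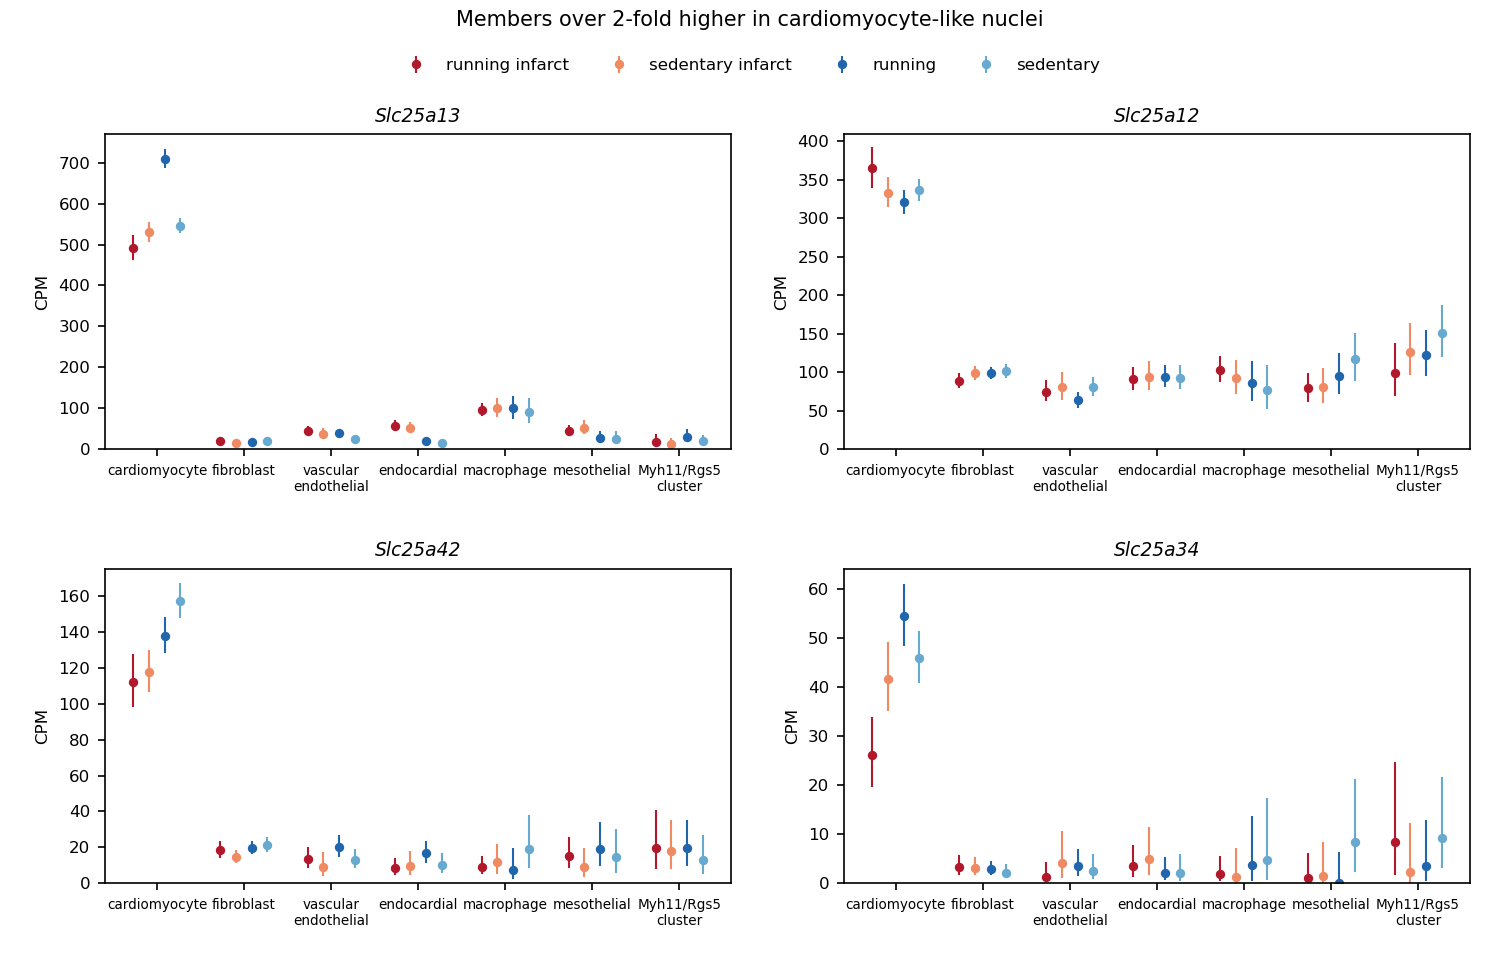
CPM of Slc25a13, Slc25a12, Slc25a42 and Slc25a34 in 7 classes, 1 point for each library with its exact 95% Poisson interval. The 4 cardiomyocyte-like values are above every other class for each of these members, and macrophage-like nuclei are second for Slc25a13 at 91.4 to 99.6 CPM.

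Transcripts of broken cardiomyocytes can be caught with other nuclei, so the levels elsewhere were set beside those of 10 abundant cardiomyocyte transcripts. In fibroblast-like nuclei the median of these 10 was 7.97%, 8.63%, 13.1% and 12.9% of their cardiomyocyte-like level. Slc25a13 lay below that median, at 4.17%, 2.83%, 2.34% and 3.67%, and Slc25a34 was at 12.6%, 7.49%, 5.27% and 4.70%. Slc25a42 was above the median in every library, at 16.3%, 12.3%, 14.2% and 13.6%, as was Slc25a12 at 24.2%, 29.4%, 30.7% and 30.1%. The 10 transcripts themselves ranged from 1.66% to 22.3%, 2.25% to 34.9%, 2.81% to 40.6% and 3.09% to 39.9%. In macrophage-like nuclei the median was 14.3%, 12.4%, 19.8% and 16.7%, and Slc25a13 stood at 19.4%, 18.8%, 14.0% and 16.7%. What share of the UMIs outside cardiomyocyte-like nuclei came from free RNA was not tested.

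**Figure D3:**
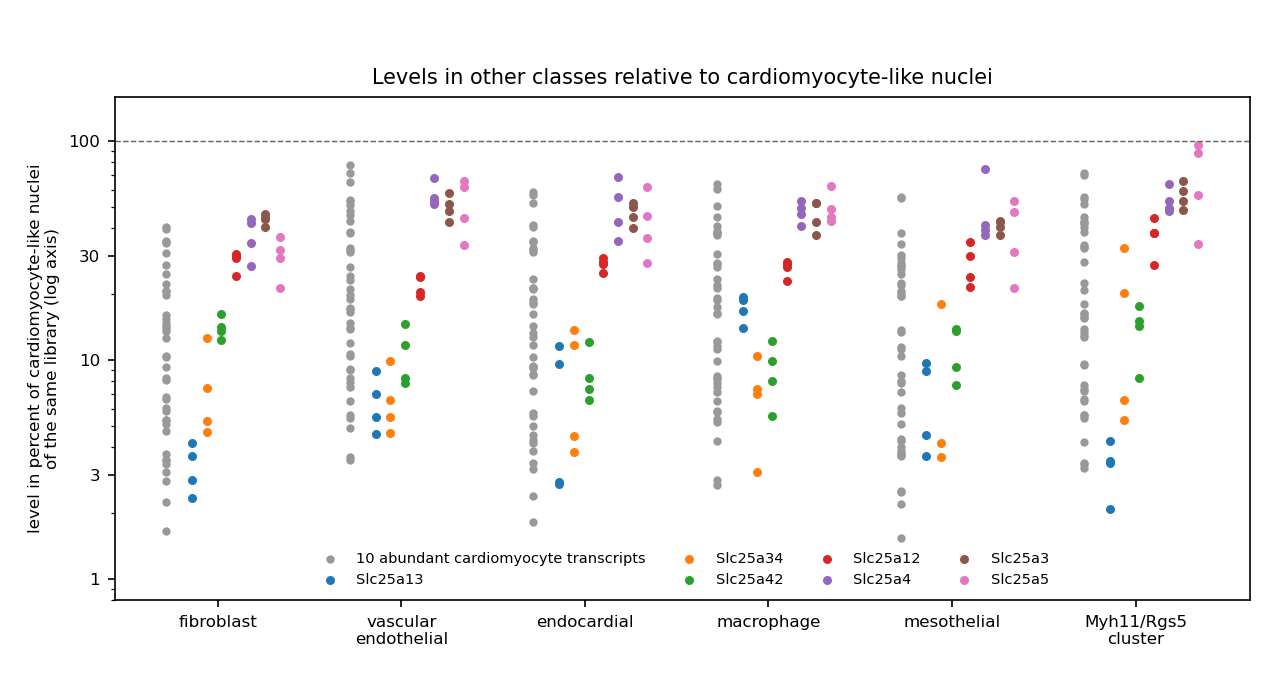
Level in 6 other classes as a percent of the cardiomyocyte-like level of the same library (log axis), for 7 members and for 10 abundant cardiomyocyte transcripts; a value of 0 (Slc25a34, mesothelial-like nuclei, running library) is not drawn. Slc25a13 in fibroblast-like nuclei lies at 2.34% to 4.17%, while Slc25a3 and Slc25a4 are far higher in all classes.

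Other carriers of dicarboxylates and glutamate varied in their highest class. Slc25a11, the oxoglutarate carrier that completes the malate-aspartate shuttle, had 51.2, 50.0, 43.1 and 50.7 CPM in cardiomyocyte-like nuclei and 18.6, 21.9, 17.6 and 20.0 CPM in fibroblast-like nuclei. The glutamate carriers Slc25a22 and Slc25a18 had 19.3, 20.5, 27.3 and 34.1 CPM and 7.24, 8.77, 9.96 and 10.5 CPM in cardiomyocyte-like nuclei. Slc25a21, which carries 2-oxoadipate and related dicarboxylates, was a fibroblast-like member, at 28.8, 22.4, 57.8 and 56.5 CPM there. The citrate carrier Slc25a1 reached 100 UMIs over the libraries in fibroblast-like nuclei alone (8.22, 6.49, 3.89 and 4.52 CPM), and the dicarboxylate carrier Slc25a10 in no class.

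Among carriers of carnitine and amino acids, Slc25a20 was the cardiomyocyte-like member. It had 62.3, 69.0, 68.2 and 85.5 CPM in cardiomyocyte-like nuclei and 18.4, 19.7, 17.3 and 15.9 CPM in fibroblast-like nuclei. Slc25a45 was highest in macrophage-like nuclei, at 43.2, 42.7, 61.1 and 69.8 CPM, and had 13 UMIs over all 4 libraries in cardiomyocyte-like nuclei. Slc25a38, linked to glycine import for haem synthesis, had 14.0, 13.1, 12.2 and 11.5 CPM in cardiomyocyte-like and 14.0, 17.7, 17.9 and 16.9 CPM in fibroblast-like nuclei, with overlapping intervals in each library.

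Slc25a42 led the cofactor carriers by contrast between classes, with 113, 118, 138 and 157 CPM in cardiomyocyte-like nuclei and 18.4, 14.5, 19.6 and 21.4 CPM in fibroblast-like nuclei. It was 5.67 to 7.35 times its next class, and the classes were separate in every library. Slc25a26, which imports S-adenosylmethionine, had 75.3, 77.7, 77.3 and 88.2 CPM in cardiomyocyte-like nuclei against 33.2, 33.3, 31.8 and 28.3 CPM in fibroblast-like nuclei. Slc25a32, a folate or FAD carrier, was highest in vascular endothelial-like nuclei (49.4, 58.9, 66.3 and 64.4 CPM) and had 14.5, 24.3, 23.7 and 16.8 CPM in cardiomyocyte-like nuclei. The NAD carrier Slc25a51, the peroxisomal carrier Slc25a17 and the glutathione carrier Slc25a40 showed no such order: Slc25a17 had 44.9, 48.8, 50.6 and 47.8 CPM in cardiomyocyte-like and 46.6, 47.0, 50.7 and 53.2 CPM in fibroblast-like nuclei.

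The pyrimidine nucleotide carriers Slc25a36 and Slc25a33 are close relatives and differed in pattern. Slc25a36 was present in all classes, at 198, 187, 171 and 242 CPM in cardiomyocyte-like nuclei and 169, 165, 151 and 138 CPM in fibroblast-like nuclei. Slc25a33 had 16.4, 26.0, 58.3 and 48.2 CPM in cardiomyocyte-like nuclei and 25.5, 86.6, 62.6 and 31.6 CPM in the Myh11 and Rgs5 cluster (100 UMIs in all), with 6.30, 9.39, 14.7 and 8.25 CPM in fibroblast-like nuclei. Slc25a47 had 55.0, 69.8, 59.0 and 82.7 CPM in cardiomyocyte-like nuclei and 33.7, 30.4, 30.4 and 51.4 CPM in fibroblast-like nuclei.

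The iron carriers and Slc25a27 had lower levels in cardiomyocyte-like nuclei than in another class, and the outer membrane member Slc25a46 had higher levels there than in fibroblast-like nuclei. Slc25a37 (mitoferrin 1), which imports iron for haem and iron-sulphur clusters, had 71.5, 97.0, 84.0 and 129.9 CPM in macrophage-like nuclei and 28.0, 33.6, 30.5 and 43.7 CPM in cardiomyocyte-like nuclei. Slc25a28 (mitoferrin 2) had 52.2, 58.2, 55.3 and 72.2 CPM against 20.3, 28.1, 24.3 and 27.5 CPM in the same classes. Both iron carriers were thus lower in cardiomyocyte-like than in macrophage-like nuclei in each library. Slc25a27 (UCP4) had 98.4, 118, 112 and 112 CPM in fibroblast-like nuclei and 42.0, 40.6, 38.7 and 40.8 CPM in cardiomyocyte-like nuclei. Slc25a46, an outer membrane protein involved in mitochondrial shape, had 84.0, 105, 109 and 133 CPM in cardiomyocyte-like nuclei and 50.4, 53.7, 46.3 and 55.2 CPM in fibroblast-like nuclei.

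Slc25a34 had 26.1, 41.8, 54.5 and 45.9 CPM in cardiomyocyte-like nuclei and 3.29, 3.13, 2.88 and 2.16 CPM in fibroblast-like nuclei. It was 3.07 to 14.3 times its next class, and the other 6 classes held between 6 and 54 UMIs of it over the 4 libraries. Across the 28 values of 7 classes and 4 libraries, which share libraries and depth, the genes outside the family most like it among 11097 were Tmem38a, Cox10 and Trdn (Pearson r of log2(CPM + 1) 0.917, 0.909 and 0.909). For Slc25a42 they were Dcp1b, Tnni3k and Mpc1 (0.954, 0.950 and 0.944) and for Slc25a13 Bcl11a, Tmem144 and Ogdh (0.917, 0.910 and 0.899). Slc25a33 was most like Gm43288, Abcc9 and Ednra (0.899, 0.892 and 0.880).

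How the carriers stood after an infarct in mice that had run was read from the running infarct against the running library. A member was called where the whole interval of its CPM ratio lay beyond 1.5-fold, and a sum of 100 UMIs in the pair of libraries was required. In cardiomyocyte-like nuclei 2 of 26 members were called, both lower, where 1.38% of all genes were called lower and 2.04% higher. Slc25a33 had 16.4 CPM in the running infarct and 58.3 CPM in the running library (34 and 310 UMIs), a ratio of 0.282 (0.192 to 0.402). Slc25a34 had 26.1 CPM in the running infarct and 54.5 CPM in the running library (54 and 290 UMIs), a ratio of 0.478 (0.351 to 0.641). The 10 richest nuclei held 55.9% of the Slc25a33 and 40.7% of the Slc25a34 UMIs of the running infarct library, against 12.3% and 14.5% in the running library.

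The family as a whole stood near an even ratio in that comparison. Its median log2 ratio was -0.15 over the 26 members, against -0.02 over all genes tested. None of the 26 was at least 1.5-fold higher and 3 were at least 1.5-fold lower, where all genes gave 5.71% and 6.92%. Slc25a13 was at a ratio of 0.694 (0.647 to 0.744), Slc25a42 at 0.815 (0.701 to 0.946), Slc25a12 at 1.14 (1.04 to 1.24) and Slc25a5 at 1.37 (1.10 to 1.69). Slc25a3 and Slc25a4 both had a ratio of 1.01 over the whole class. For Slc25a4 each cluster of the class was lower in the running infarct than in the running library, at 2131 against 2591 CPM in the cluster of low depth and 551 against 685 CPM in the other, and the cluster of low depth held 51.9% of the class in the running infarct and 15.1% in the running library. A single nucleus of the running infarct library held 241 of its 1606 Slc25a4 UMIs.

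The sedentary infarct library was compared with the sedentary library in the same way. In cardiomyocyte-like nuclei 0 of 29 members were called, where 1.47% of all genes were called higher and 1.69% lower. By the ratio itself 1 of the 29 was at least 1.5-fold higher and 2 were at least 1.5-fold lower, where all genes gave 5.64% and 5.49%. The lowest ratios were those of Slc25a33, at 26.0 CPM in the sedentary infarct and 48.2 CPM in the sedentary library with a ratio of 0.539 (0.421 to 0.684), of Slc25a22 at 0.599 (0.451 to 0.788) and of Slc25a42 at 0.749 (0.666 to 0.841). The highest were Slc25a16 at 1.54 (1.16 to 2.04), Slc25a32 at 1.45 (1.07 to 1.95) and Slc25a5 at 1.30 (1.08 to 1.55). The median log2 ratio of the 29 members was -0.01, against 0.02 over all genes tested.

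**Figure D4:**
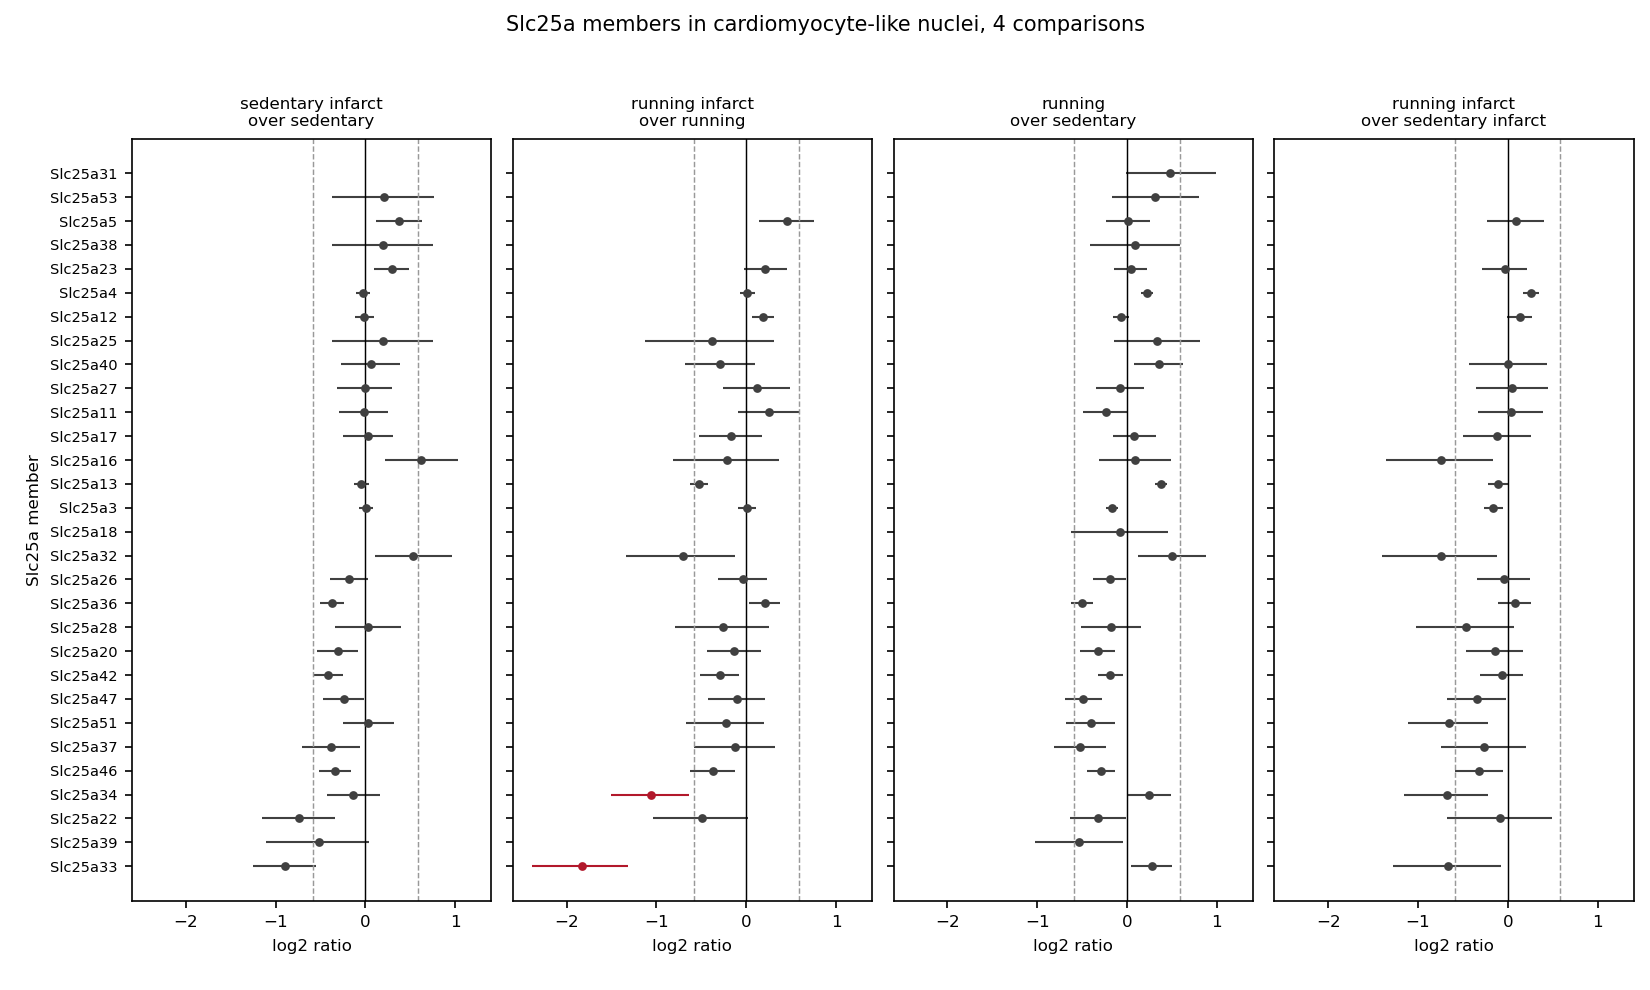
Log2 ratios of CPM in cardiomyocyte-like nuclei with exact 95% intervals for 30 members in 4 comparisons; dashed lines mark 1.5-fold either way and red points have an interval wholly beyond it. Red points appear for Slc25a33 (a ratio of 0.282) and Slc25a34 (0.478) in running infarct over running and for no member in the other comparisons.

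Parts of the same library differed as much for some of these members as the libraries did. In Y-positive cardiomyocyte-like nuclei Slc25a33 had 16.8, 22.2, 64.9 and 12.2 CPM in the running infarct, sedentary infarct, running and sedentary library, and in nuclei without Y-linked UMIs, called Y-negative, it had 16.5, 28.0, 50.3 and 83.2 CPM. Within the sedentary library the Y-positive level was thus 0.147 times the Y-negative level (0.0998 to 0.209). The running infarct library was below the running library in both kinds of nuclei, at a log2 ratio of -1.95 for Y-positive and of -1.61 for Y-negative nuclei. The sedentary infarct library was above the sedentary library in Y-positive nuclei (0.86) and below it in Y-negative nuclei (-1.57).

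Slc25a34 and Slc25a13 showed the same kind of spread. Slc25a34 had 18.9, 32.8, 61.6 and 28.6 CPM in Y-positive and 28.7, 44.7, 41.7 and 62.5 CPM in Y-negative cardiomyocyte-like nuclei, and its log2 ratio of running infarct to running was -1.70 among Y-positive nuclei and -0.54 among the Y-negative ones. With nuclei limited to 5% mitochondrially encoded UMIs, which left out 44.0%, 45.4%, 91.7% and 65.5% of barcodes in the running infarct, sedentary infarct, running and sedentary library, that log2 ratio was -0.36. Slc25a13 had 486, 514, 794 and 456 CPM in Y-positive and 483, 531, 585 and 613 CPM in Y-negative nuclei. Without the cluster of low depth the log2 ratios of running infarct to running were -1.80 for Slc25a33, -1.09 for Slc25a34 and -0.51 for Slc25a13. How far sex, single hearts, depth or the infarct account for these values cannot be told apart.

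Running without an infarct was set against the sedentary state in the same nuclei. In cardiomyocyte-like nuclei 0 of 31 members were called, where 0.63% of all genes were called higher and 0.467% lower, and none was 1.5-fold higher or lower by its ratio, where all genes gave 3.91% and 2.09%. Slc25a13 had 709.7 CPM in the running and 546 CPM in the sedentary library, a ratio of 1.30 (1.24 to 1.36), but Y-positive nuclei gave a log2 ratio of 0.80 and Y-negative nuclei one of -0.07. Slc25a4 had a ratio of 1.17 (1.12 to 1.22) and a log2 ratio of -0.04 with nuclei limited to 5% mitochondrially encoded UMIs. Slc25a36 stood at 0.707 (0.650 to 0.767), where Y-positive nuclei gave a log2 ratio of -0.78 and Y-negative nuclei one of -0.30, and Slc25a37 at 0.696 (0.570 to 0.848). Slc25a47 stood at 0.714 (0.619 to 0.823), where Y-positive nuclei gave a log2 ratio of -1.19 and Y-negative nuclei one of 0.27. The median log2 ratio of the 31 members was -0.07, against 0.00 over all genes tested.

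The running infarct library was also set against the sedentary infarct library. In cardiomyocyte-like nuclei 0 of 25 members were called, where 0.946% of all genes were called higher and 0.16% lower, and by the ratio itself 0 of the 25 were at least 1.5-fold higher and 5 at least 1.5-fold lower, where all genes gave 3.7% and 3.38%. Slc25a34 stood at 0.624 (0.448 to 0.859), Slc25a51 at 0.634 (0.464 to 0.857) and Slc25a16 at 0.598 (0.391 to 0.893). Slc25a4 had 776 CPM in the running infarct and 648 CPM in the sedentary infarct library, and the ratio was 1.20 (1.12 to 1.28). That order rested on the cluster of low depth, where Slc25a4 had 2131, 1890, 2591 and 3248 CPM in the 4 libraries, against 551, 608, 685 and 589.6 CPM in the other cardiomyocyte-like cluster. Without the cluster of low depth the log2 ratio was -0.14 in place of 0.26. The Slc25a4 ratio also leans on 1 nucleus, which held 241 of the 1606 Slc25a4 UMIs of the running infarct library. No nucleus of the sedentary infarct library held more than 23 of its 2217. The 10 richest nuclei held 25.6% and 8.75% of the Slc25a4 UMIs in these 2 libraries, and the interval of the ratio does not cover this. The running infarct, running and sedentary infarct libraries each enter 2 of these 4 comparisons, as does the sedentary library, so the comparisons are not independent of one another.

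In fibroblast-like nuclei the member that stood out was Slc25a21. In the comparison of sedentary infarct with sedentary 1 of 30 members was called, where 2.72% of all genes were called lower and 3.15% higher, and in that of running infarct with running 2 of 32 were called, where 3.37% were called lower and 3.88% higher. Slc25a21 had 28.8, 22.4, 57.8 and 56.5 CPM in the running infarct, sedentary infarct, running and sedentary library, with both infarct libraries below both others. Its ratio was 0.396 (0.312 to 0.498) for sedentary infarct over sedentary and 0.497 (0.396 to 0.621) for running infarct over running. In GENCODE vM21 the gene overlaps Pax9 on the other strand, and whether counting used the strand is not given in the sources used here. The same doubt holds for Slc25a2, Slc25a11, Slc25a18, Slc25a23, Slc25a25, Slc25a26, Slc25a35, Slc25a46 and Slc25a53, which each overlap another gene on the other strand, and Slc25a37 overlaps a gene on either strand.

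The makeup of the fibroblast-like class moved with those values. Slc25a21 had 16.9 and 9.42 CPM in the Col12a1 cluster of the running infarct and sedentary infarct library. In the largest cluster it had 53.7, 37.4, 64.3 and 62.3 CPM in the running infarct, sedentary infarct, running and sedentary library, and in the second largest 20.2, 19.6, 48.1 and 48.9 CPM. Without the Col12a1 cluster the log2 ratios were -0.50 for running infarct over running and -0.90 for sedentary infarct over sedentary, in place of -1.01 and -1.34. The Y-positive nuclei alone gave -0.25 for sedentary infarct over sedentary, and the Y-negative ones gave -1.78. The 10 richest nuclei held 54.3%, 51.0%, 18.7% and 26.4% of the Slc25a21 UMIs in the 4 libraries.

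Slc25a4 was the second called member of fibroblast-like nuclei, at 208 CPM in the running infarct and 340.1 CPM in the running library, a ratio of 0.612 (0.563 to 0.666). In the sedentary infarct and sedentary library it had 223 and 280.0 CPM, a ratio of 0.797 (0.735 to 0.865). The 10 abundant cardiomyocyte transcripts moved the same way in fibroblast-like nuclei: their median log2 ratio was -0.59 for running infarct over running and -0.54 for sedentary infarct over sedentary, and their summed level was 2120, 2496, 3216 and 3375 CPM. The part of free RNA in the Slc25a4 difference was not tested. Running over sedentary and running infarct over sedentary infarct gave 0 called members of 35 and 29, where 0.402% and 0.429% of all genes were called higher and 0.287% and 0.303% lower. Over these 4 comparisons the family's median log2 ratio ran between -0.12 and 0.02. Slc25a47 had a ratio of 0.592 (0.487 to 0.718) for running over sedentary, with 24.1 and 68.2 CPM in Y-positive and 32.6 and 39.4 CPM in Y-negative nuclei of the running and sedentary library.

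**Figure D5:**
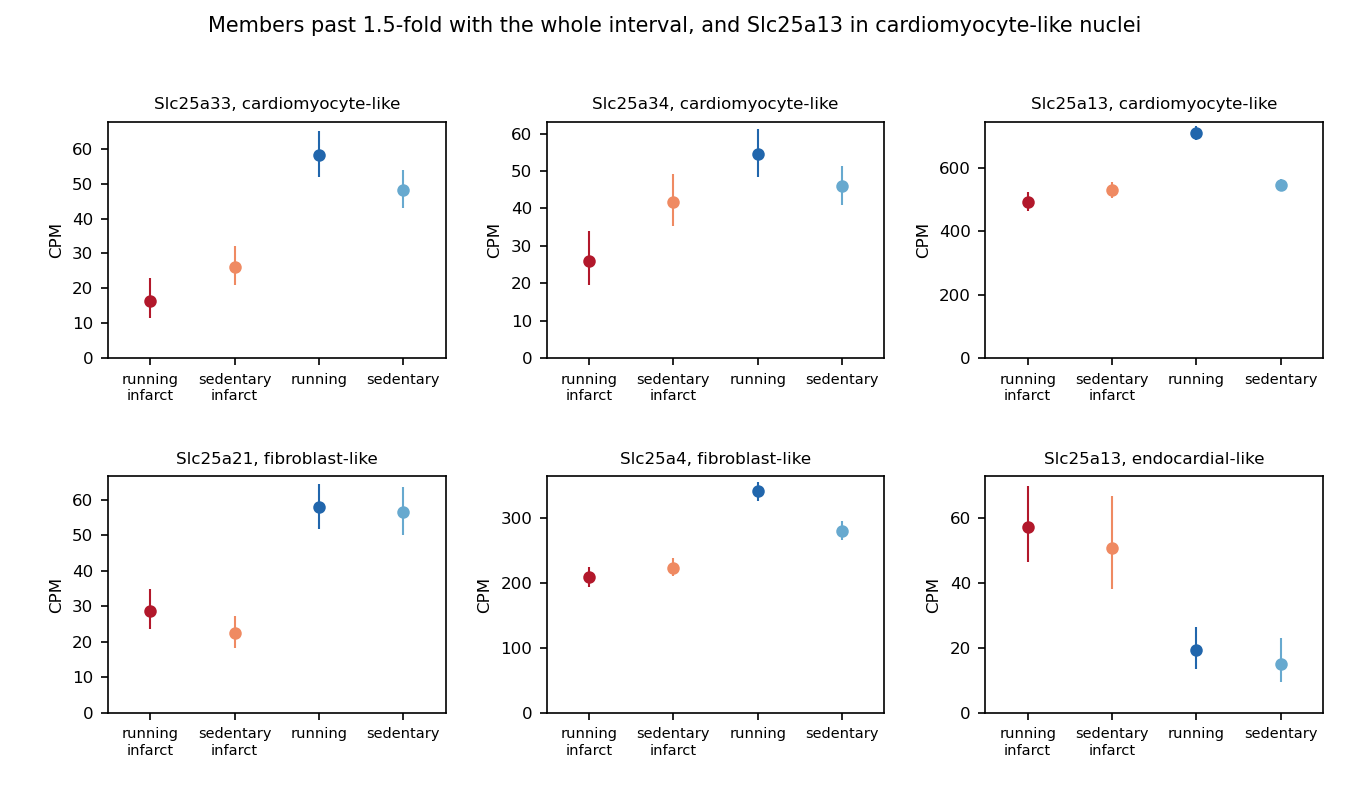
CPM with exact 95% Poisson intervals in the running infarct, sedentary infarct, running and sedentary library, for Slc25a33, Slc25a34 and Slc25a13 in cardiomyocyte-like nuclei, Slc25a21 and Slc25a4 in fibroblast-like nuclei and Slc25a13 in endocardial-like nuclei. Slc25a21 lies at 28.8 and 22.4 CPM in the infarct libraries and at 57.8 and 56.5 CPM in the others.

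In endocardial-like nuclei Slc25a13 had 57.2, 50.9, 19.3 and 15.2 CPM in the running infarct, sedentary infarct, running and sedentary library (96, 52, 37 and 22 UMIs). Both infarct libraries were above both others. It was the 1 of 16 members called in running infarct over running, with a ratio of 2.97 (2.01 to 4.46), where 2.68% of all genes were called higher and 3.53% lower. By the ratio itself 1 of the 16 was at least 1.5-fold higher and 2 at least 1.5-fold lower, where all genes gave 5.27% and 12%. Y-positive nuclei alone gave a log2 ratio of 1.49, and Y-negative nuclei 1.39. Within the sedentary infarct library the Y-positive level of Slc25a13 was 0.216 times the Y-negative level (0.0254 to 0.828). The 10 richest nuclei held 30.2%, 50%, 32.4% and 50% of the Slc25a13 UMIs in the running infarct, sedentary infarct, running and sedentary library. Sedentary infarct over sedentary had 74 UMIs of Slc25a13 in all and did not reach the minimum of 100. The 10 abundant cardiomyocyte transcripts had a median log2 ratio of -0.30 for running infarct over running in the same nuclei, between -0.78 for Ttn and 0.03 for Mb.

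No member was called in the remaining comparisons of endocardial-like nuclei (10, 15 and 12 members for sedentary infarct over sedentary, running over sedentary and running infarct over sedentary infarct), where all genes were called higher in 2.47%, 0.407% and 0.356% and lower in 2.06%, 0.266% and 0.694%. By the ratio itself 0, 3 and 0 of those members were at least 1.5-fold higher, where all genes gave 5.77%, 3.01% and 2.42%, and 1, 0 and 1 were at least 1.5-fold lower, where all genes gave 7.9%, 2.46% and 4.78%. The 3 higher members of running over sedentary were Slc25a23, at 42.3 CPM in the running and 17.9 CPM in the sedentary library with a ratio of 2.36 (1.498 to 3.82), Slc25a28 at 1.86 (1.26 to 2.80) and Slc25a26 at 1.67 (1.10 to 2.58).

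In vascular endothelial-like nuclei 12, 19, 18 and 12 members entered sedentary infarct over sedentary, running infarct over running, running over sedentary and running infarct over sedentary infarct, and 0 were called. All genes were called there higher in 1.27%, 1.93%, 0.499% and 0.131% and lower in 1.73%, 2.26%, 0.346% and 0.169%. Macrophage-like nuclei, the Myh11 and Rgs5 cluster and mesothelial-like nuclei let 3 to 12 members enter a comparison, and 0 were called. For sedentary infarct over sedentary, running infarct over running, running over sedentary and running infarct over sedentary infarct, all genes were called higher in 1.98%, 2.16%, 0.25% and 0.219% and lower in 1.52%, 1.86%, 0.208% and 0.657% in macrophage-like nuclei. In the Myh11 and Rgs5 cluster these shares were 0.876%, 2.07%, 0.224% and 0.619% higher and 1.08%, 1.62%, 0.449% and 0.567% lower. Mesothelial-like nuclei had 2.07%, 2.72%, 0.358% and 0.524% higher and 1.96%, 2.14%, 0.597% and 0.496% lower. Some ratios there that were not called still had intervals clear of an even ratio, and examples follow. Slc25a36 in macrophage-like nuclei had a ratio of 1.70 (1.23 to 2.37) for sedentary infarct over sedentary. For running infarct over sedentary infarct its ratio was 0.779 (0.637 to 0.956). Slc25a4 in mesothelial-like nuclei had 484 CPM in the sedentary infarct and 275 CPM in the sedentary library, a ratio of 1.76 (1.44 to 2.18), and its ratio of running infarct to sedentary infarct was 0.599 (0.507 to 0.707). In vascular endothelial-like nuclei Slc25a4 had a ratio of 0.774 (0.680 to 0.878) for sedentary infarct over sedentary, and Slc25a3 one of 1.21 (1.07 to 1.35) for running over sedentary. Mesothelial-like nuclei held 2586, 3757, 2588 and 2994 CPM of the 10 abundant cardiomyocyte transcripts in the running infarct, sedentary infarct, running and sedentary library. Vascular endothelial-like nuclei held 4524, 4207, 5429 and 5786 CPM of them in the same order. The part of free RNA in these ratios was not tested.

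The wider setting of the carriers in cardiomyocyte-like nuclei was followed in lists of other mitochondrial genes. Of 16 partner enzymes of the carriers, such as Got1, Ogdh and Cpt1a, 3 were at least 1.5-fold lower and 0 higher in running infarct over running, where all genes gave 6.92% and 5.71%, and their median log2 ratio was 0.00. Cpt1a and Cpt1b both make acylcarnitines, which Slc25a20 imports. Cpt1a had 50.7, 71.9, 97.8 and 97.6 CPM in the running infarct, sedentary infarct, running and sedentary library, and its ratio of running infarct to running was 0.519 (0.416 to 0.641). Cpt1b had 185 CPM in the running infarct and 232 CPM in the sedentary infarct library. Of 8 regulators of mitochondrial biogenesis 1 was at least 1.5-fold lower in that comparison (Ppargc1a, a coactivator of mitochondrial genes). Of 15 other inner membrane transporters none was 1.5-fold higher or lower there, and their median log2 ratio was 0.00. In sedentary infarct over sedentary 0 of the 16 partner enzymes and 0 of the 8 regulators were 1.5-fold higher or lower, where all genes gave 5.64% higher and 5.49% lower. Of 16 other inner membrane transporters measured there 1 was higher and 0 were lower. This was Letm1, an inner membrane protein of cation exchange, at 38.9 CPM in the sedentary infarct and 24.7 CPM in the sedentary library with a ratio of 1.58 (1.24 to 2.00).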

How the data were processed

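The authors deposited unnormalised UMI counts for each library, made with a 10x Genomics 3' assay from Hoechst-sorted ventricle nuclei, per the labels' protocols. Cell Ranger 7.1 and the GRCm39 build stand in the submitters' processing notes, and the annotation release and the handling of introns and strand are not given in the sources used here. No cell annotation was used, and classes were rebuilt with scanpy 1.11.5. A barcode was kept from 300 genes upwards and up to 20% mitochondrially encoded UMIs, and the highest doublet scores were removed at 0.8% per 1000 barcodes (192, 82, 301 and 228 in the running infarct, sedentary infarct, running and sedentary library). Counts were scaled to 10000, and 3000 variable genes without the members, 40 principal components, 15 neighbours and Leiden resolution 1 gave the clusters. A cluster took a name from 162 markers of 17 cell types at a score of at least 1 (log2) with 3 markers detected in 10% of nuclei, and stayed unnamed from a median doublet score of 0.1 upwards.

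Class sums of UMIs in each library were scaled to CPM, with 37 mitochondrially encoded genes left out of the total. Levels carry exact Poisson intervals and ratios exact conditional binomial ones, computed with scipy 1.17.1 and tested on simulated data. With 1 library per group no test was made. Named were members with at least 100 UMIs in a class, those whose interval lay wholly beyond 1.5-fold or, where fewer than 3 did, up to 3 in each direction with the bound farthest from even, and those over 2-fold above every other class. Likeness used Pearson's r over class and library values, among genes with at least 1000 UMIs. Classes under 100 nuclei in a library were not compared.

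The members, gene lists, markers and rules were chosen with earlier results of these data known. The alternatives were other filters, doublets kept, other resolutions, size factors (TMM from edgeR 4.0.16 and median of ratios), denominators and minimums, Y-positive or Y-negative nuclei, every nucleus weighed the same and, added after seeing the data, each class without its cluster of low depth or led by Col12a1. The promoter motifs were also chosen after the members' values were seen. The values of 1 member and the genes most like Slc25a12 are not reported here; counts and medians include every member.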

Additional observations from a re-analysis of the deposited data

Results flagged for a closer look

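In these cases the same contrast pointed opposite ways in 2 settings, with both ratio intervals clear of an even ratio. None of these differences was tested, since each group was 1 library, and the values are differences of log2 ratios.

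Slc25a32, a folate or FAD carrier, differed most in cardiomyocyte-like nuclei. It had few UMIs there, at 30, 83, 126 and 108 in the running infarct, sedentary infarct, running and sedentary library. The 10 richest nuclei held 43.3% of the 30. Its ratio was 0.612 for running infarct over running and 1.45 for sedentary infarct over sedentary, a difference of -1.24, and the same difference of -1.24 arises from 0.597 for running infarct over sedentary infarct and 1.41 for running over sedentary. In Y-negative nuclei the log2 ratio of running over sedentary was -0.09 in place of 0.50. The pyrimidine nucleotide carrier Slc25a36 had a ratio of 1.15 for running infarct over running and 0.773 for sedentary infarct over sedentary in cardiomyocyte-like nuclei, a difference of 0.58. Slc25a33 had 0.631 for running infarct over sedentary infarct and 1.21 for running over sedentary in those nuclei, a difference of -0.94, and Slc25a34 had 0.624 and 1.19 for the same comparisons, a difference of -0.93. In Y-negative nuclei the contrasts did not point opposite ways, with 0.590 for running infarct over sedentary infarct and 0.604 for running over sedentary for Slc25a33, and 0.642 and 0.666 for Slc25a34. In Y-positive nuclei they did, by the levels given above. There both members were lower in the running infarct than in the sedentary infarct library, and higher in the running than in the sedentary library. For Slc25a36 the log2 ratio of running infarct over running was 0.02 in Y-negative nuclei in place of 0.21.

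In endocardial-like nuclei both abundant energy carriers were lower in the running infarct library and higher in the sedentary infarct library than in the matching library without an infarct. Slc25a4 had ratios of 0.825 and 1.22, a difference of -0.56, and Slc25a3 had 0.870 and 1.25, a difference of -0.53. For the running contrast Slc25a3 had 0.807 with and 1.16 without an infarct, again a difference of -0.53. With at most 5% mitochondrially encoded UMIs the log2 ratios of Slc25a4 were 0.16 for running infarct over running and -0.11 for sedentary infarct over sedentary, of the other sign. The 10 abundant cardiomyocyte transcripts summed to 2606, 3624, 3488 and 3893 CPM in endocardial-like nuclei of the running infarct, sedentary infarct, running and sedentary library, and their median log2 ratio was -0.30 for running infarct over running and -0.12 for sedentary infarct over sedentary. Their part in these values was not tested.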

How the results depend on the processing

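No paired analysis was possible because each group was 1 library. Of 112 alternative values of the 8 family medians (cardiomyocyte-like and fibroblast-like nuclei in 4 comparisons), 108 stayed within the 95% binomial interval of the reported median, 4 moved out of it, and 19 had the other sign. That interval is taken over the members, which are not replicates of a condition, so it does not measure the variation between mice. In Y-negative nuclei the median log2 ratio of running over sedentary was -0.26 in cardiomyocyte-like nuclei (-0.07 as reported) and -0.080 in fibroblast-like nuclei (0.02 as reported). With at most 5% mitochondrially encoded UMIs running infarct over sedentary infarct was -0.023 in cardiomyocyte-like nuclei (-0.12 as reported) and 0.041 in fibroblast-like nuclei (-0.02 as reported). The cause was not tested. Of 1830 alternative ratios of named members 109 had the other sign and 45 moved by over 1.5 times. For the called ratios the alternatives were counted by the ratio itself, not by its whole interval as in a call. By that count Slc25a33 in cardiomyocyte-like nuclei stayed past 1.5-fold in 14 of 14 alternatives (log2 -1.96 to -1.61) and Slc25a13 in endocardial-like nuclei in 13 of 13 (1.34 to 2.57). Slc25a34 in cardiomyocyte-like nuclei did so in 12 of 14 (-1.70 to -0.36), Slc25a21 in fibroblast-like nuclei in 13 of 14 for sedentary infarct over sedentary (-1.78 to -0.25) and in 13 of 14 for running infarct over running (-1.42 to -0.50), and Slc25a4 in fibroblast-like nuclei in 9 of 14 (-0.80 to -0.42). The 4 members over 2-fold above every other class were so in all but 1 of 128 alternative values. Other clusterings gave no value for the Myh11 and Rgs5 cluster, and with 1 library per group no replicate could be left out. Depth limits the ratios of members with few UMIs, such as Slc25a32 with 30 and Slc25a33 with 34 in cardiomyocyte-like nuclei of the running infarct library.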

Other observations

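The unnamed cluster led by Car3 and Cidec, genes high in fat cells, was too small to compare, with 265, 89, 43 and 30 nuclei in the running infarct, sedentary infarct, running and sedentary library. The members summed there to 2063, 2404, 1980 and 2346 CPM (550, 320, 77 and 74 UMIs), and Slc25a4 had 536, 563, 591 and 602 CPM. The carrier relatives Mtch1 and Mtch2, outer membrane proteins whose symbols lie outside the rule, had 45.4, 40.9, 42.9 and 35.1 CPM and 102, 122, 109 and 102 CPM in cardiomyocyte-like nuclei of the same libraries. Ucp1, the uncoupling protein of brown fat, was at 0 UMIs in cardiomyocyte-like nuclei of all 4 libraries.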
